A study of Mus musculus with 12 samples.

Results

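The 10 genes of osteoblast differentiation followed here, Runx2, Sp7, Alpl, Bglap, Bglap2, Ibsp, Spp1, Sparc, Bmp2 and Postn, were measured by RNA sequencing in mouse bone marrow macrophages and marrow mesenchymal stem cells. They were chosen by gene symbol, matched through the GRCm38 annotation, and are 10 of the 55487 genes in each count table. Both experiments used cells of C57BL/6 mice labelled as 8 weeks old. The first compared bone marrow macrophages (BMMs, marrow cells grown in macrophage colony-stimulating factor) from ovariectomized mice (OVX, the loss of ovarian hormones being a model of postmenopausal bone loss) with BMMs from sham-operated mice, in 3 libraries each. The second compared untreated mesenchymal stem cells (MSC) with MSCs that shared a transwell chamber with RAW264.7 cells (MSC+RAW-TW) or with lipopolysaccharide-stimulated RAW264.7 cells (MSC+RAW-LPS-TW), in 2 libraries each. RAW264.7 is a mouse macrophage line, and lipopolysaccharide (LPS) is a bacterial cell wall component that activates macrophages. A porous membrane kept the macrophages apart from the MSCs. The MSCs were the adherent marrow cells of the long bones at a low passage, with no sorting step given in the sources used here, and the number of mice behind a library was not given there. The methods name α-MEM with serum for growing the MSCs and DMEM for the transwell groups of other assays, but not the medium of the sequenced cultures.

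Osteoblasts are the cells that build bone. They arise from marrow stromal precursors under the transcription factors Runx2 and Sp7 (osterix), with bone morphogenetic proteins such as Bmp2 and WNT ligands as inputs from outside the cell. Alpl, tissue-nonspecific alkaline phosphatase, is an early enzyme of the lineage that frees phosphate for mineral. Spp1 (osteopontin), Sparc (osteonectin), Postn (periostin) and Ibsp (bone sialoprotein) are secreted into the matrix, and osteocalcin, encoded in the mouse by Bglap and Bglap2, marks the mature osteoblast. Several of these genes are also used elsewhere: Spp1 is made in quantity by macrophages and osteoclasts, and Sparc and Postn by many fibroblasts.

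Runx2 (ENSMUSG00000039153) lies on chr17:44495987-44814797 on the minus strand in GRCm38, and its exons partly overlap those of the antisense gene Runx2os1. Sp7 (ENSMUSG00000060284) lies on chr15:102356606-102367182, Alpl (ENSMUSG00000028766) on chr4:137741733-137796384 and Sparc (ENSMUSG00000018593) on chr11:55394500-55423183, all on the minus strand. Bmp2 (ENSMUSG00000027358) lies on chr2:133552159-133562885 on the plus strand. Ibsp (ENSMUSG00000029306) on chr5:104299171-104311469 and Spp1 (ENSMUSG00000029304) on chr5:104435118-104441050 both lie on the plus strand, and Spp1 shares part of its exons with the annotated gene Gm42793, so reads there may not have been counted for it. Postn (ENSMUSG00000027750) lies on chr3:54361109-54391037 on the plus strand. It has the lowest GC content of the 10 members, 36.3% in its longest transcript. Bglap (ENSMUSG00000074483) on chr3:88383501-88384464 and Bglap2 (ENSMUSG00000074486) on chr3:88377736-88378699 lie side by side on the minus strand. Each value is a sum over all exons of a gene, so isoforms and untranslated parts were not told apart. The strand setting of the counting was not given in the sources used here, so reads of Runx2 and Runx2os1 cannot be told apart.

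The coding sequences of the osteocalcin genes are shown because reads from one can map to the other. They are read 5′ to 3′ from the GENCODE M21 transcripts (GRCm38), without the stop codon, and capitals mark the 4 of 285 positions at which they differ.
Bglap: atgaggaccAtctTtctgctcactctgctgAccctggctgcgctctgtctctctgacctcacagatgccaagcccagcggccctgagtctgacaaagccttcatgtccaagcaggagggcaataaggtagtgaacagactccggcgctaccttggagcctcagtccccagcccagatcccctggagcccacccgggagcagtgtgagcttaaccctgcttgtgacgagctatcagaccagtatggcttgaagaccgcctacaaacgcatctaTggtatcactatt
Bglap2: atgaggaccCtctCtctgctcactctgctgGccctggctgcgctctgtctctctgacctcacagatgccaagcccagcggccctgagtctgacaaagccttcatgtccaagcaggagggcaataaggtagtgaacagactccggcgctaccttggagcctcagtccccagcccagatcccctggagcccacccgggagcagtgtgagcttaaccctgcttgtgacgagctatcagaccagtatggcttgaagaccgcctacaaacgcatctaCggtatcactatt
The coding sequences were 98.6% identical. Of the 341 stretches of 100 bases in the Bglap transcript, 192 (56.3%) also occur in Bglap2, and those 192 are 51.6% of the 372 stretches of Bglap2. The remaining gene of the cluster, Bglap3, which is known mainly from tissues other than bone, was 95.4% identical to Bglap over the coding sequence. It shared 0 of the 341 stretches of Bglap and 20 of the 372 (5.4%) of Bglap2. The values of Bglap and Bglap2 below are therefore uncertain as to which of these genes the reads came from. Reads from shared stretches may also not have been counted, so the levels of both may be too low.

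Runx2 binds a short core, TGTGGT on one strand and ACCACA on the other, and members of this list are among its textbook targets. RefSeq promoter sequences (GRCm38.p6) were found for 7 of the 10 members, Sp7, Bglap2 and Bmp2 having none, and the 250 bases before the RefSeq start were searched on both strands. Alpl, Spp1 and Postn had 2 windows each, of which the one nearest the start of the principal GENCODE transcript was used. The RefSeq start differs from that principal start by 46 bases for Runx2, 33 for Bglap, 116 for Ibsp and 18 for Postn. The windows of Runx2 and Ibsp run partly into the gene intervals given above, and those of Spp1 and Sparc lie wholly inside them. Runx2 and Bglap held the core, as did 14.0% of all 32851 promoters searched. The windows of these and of Ibsp and Postn, the members that rose in OVX BMMs, are shown 5′ to 3′ on the strand of the gene, with the core in capitals.
Runx2, chr17:44814628-44814877, minus strand: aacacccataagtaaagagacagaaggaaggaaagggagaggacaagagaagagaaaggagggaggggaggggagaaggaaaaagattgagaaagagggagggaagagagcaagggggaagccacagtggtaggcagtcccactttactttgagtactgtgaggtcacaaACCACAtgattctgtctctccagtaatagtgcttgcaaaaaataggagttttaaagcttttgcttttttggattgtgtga
Bglap, chr3:88384467-88384716, minus strand: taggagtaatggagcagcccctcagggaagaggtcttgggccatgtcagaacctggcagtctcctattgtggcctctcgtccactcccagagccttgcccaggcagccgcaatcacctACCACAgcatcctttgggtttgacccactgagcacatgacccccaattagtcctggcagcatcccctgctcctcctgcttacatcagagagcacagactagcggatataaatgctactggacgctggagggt
Ibsp, chr5:104299037-104299286, plus strand: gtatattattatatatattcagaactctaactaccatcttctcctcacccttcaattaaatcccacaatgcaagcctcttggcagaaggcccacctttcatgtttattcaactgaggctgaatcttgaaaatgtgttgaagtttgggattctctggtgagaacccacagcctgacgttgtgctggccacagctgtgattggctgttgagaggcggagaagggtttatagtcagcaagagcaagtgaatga
Postn, chr3:54360857-54361106, plus strand: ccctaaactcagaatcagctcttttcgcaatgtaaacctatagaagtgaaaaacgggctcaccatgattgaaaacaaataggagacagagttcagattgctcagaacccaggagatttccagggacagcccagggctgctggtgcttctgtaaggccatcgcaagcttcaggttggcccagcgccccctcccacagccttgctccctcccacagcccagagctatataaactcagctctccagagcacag
Ibsp, Postn, Alpl, Spp1 and Sparc did not hold these letters in this window. A match of 6 letters is a description of the sequence and not a binding site.

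The libraries held 17012923 to 45367105 counts. Sham replicates 2 and 3 were nearly the same: over genes with at least 2000 counts, the median squared difference between these libraries was 2.81 times what sampling gives, against 105.38 and 120.59 times in the other sham pairs. The MSC+RAW-TW libraries, whose columns carry the same name, MR-1, differed by 3.26 times the sampling value. The replicate pairs of the other MSC groups gave 18.51 (MSC) and 50.58 (MSC+RAW-LPS-TW). Each of these near-identical pairs was therefore counted as 1 sample, which left 3 OVX, 2 sham, 2 MSC, 1 MSC+RAW-TW and 2 MSC+RAW-LPS-TW samples. The single MSC+RAW-TW sample was assumed to vary like the others. The MSC+RAW-LPS-TW columns are named MRL-2 and MRL-3, numbers that together do not match replicates 1 and 2 of the labels, so the columns of both cocultures were assigned to their group only. The labelled cell types were checked against their markers. The 20 macrophage markers summed to 49100 to 72300 CPM (the normalised read count, relative to the library total after TMM scaling) in the BMM libraries, but also to 17500 to 43000 CPM in the MSC libraries, where Lyz2 stood between 9170 and 26500 CPM. The 12 stromal markers, among them Col1a1, Pdgfra and Cxcl12, summed to 2030 to 4070 CPM in the MSC libraries and to 7010 to 8410 CPM in the BMM libraries. The MSC libraries thus held macrophage RNA and the BMM libraries stromal RNA, and Col1a1 was at 1880 to 2080 CPM in BMMs against 456 to 790 CPM in the MSC experiment (CPM were scaled within each experiment). In bulk RNA, fewer cells of a type and less RNA per cell cannot be told apart.

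Levels were first compared between genes within a group, as RPKM, the CPM divided by the exon length in kilobases. Spp1 and Sparc led in each of the 5 groups. In OVX BMMs, Spp1 reached 2290 ± 649 RPKM (SD, n = 3), Sparc 1080 ± 60.4 and Postn 83.6 ± 19.8. Ibsp (3.99 ± 0.934 RPKM) and Alpl (3.32 ± 0.488 RPKM) were within their spread of each other, ahead of Runx2 at 2.22 ± 0.0921 RPKM. Sp7 (0.59 ± 0.167 RPKM) and Bmp2 (0.39 ± 0.137 RPKM) were also within their spread, as were Bglap2 (0.128 ± 0.221 RPKM) and Bglap (0.118 ± 0.13 RPKM).

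The order among the lower genes differed between groups. In sham BMMs, Spp1 (1080 ± 549 RPKM, n = 2) and Sparc (945 ± 144 RPKM) did not differ beyond their spread, Postn followed at 22.3 ± 7.73 RPKM, and Ibsp, at 0.644 ± 0.249 RPKM, stood below Alpl and Runx2. In MSCs, Alpl (6.09 ± 0.389 RPKM, n = 2) came next after Sparc, ahead of Postn (4.42 ± 0.0904 RPKM), and Runx2 (1.48 ± 0.161 RPKM) and Sp7 (1.35 ± 0.274 RPKM) were within their spread. In the MSC+RAW-TW sample, Bglap2 (4.25 RPKM) and Bglap (4.23 RPKM) came next after Alpl (7.85 RPKM). In MSC+RAW-LPS-TW, Postn (8.94 ± 1.52 RPKM, n = 2) came next after Sparc, and Ibsp (0.157 ± 0.00463 RPKM) and Bmp2 (0.211 ± 0.0718 RPKM) were within their spread of each other.

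**Figure D1:**
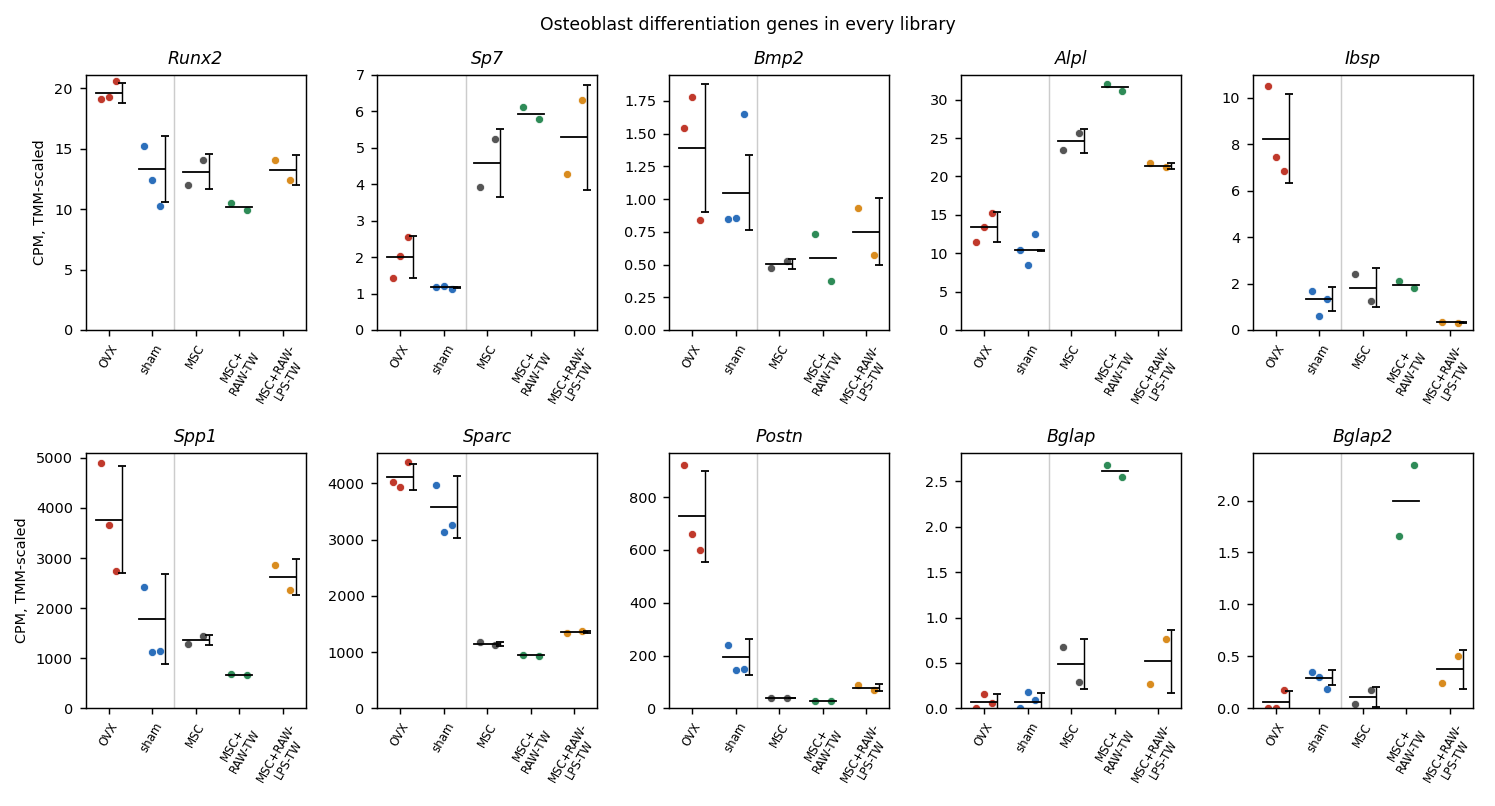
CPM (y axis, scaled by TMM within each experiment, from 0) of the 10 members in the 12 libraries, with 1 point per library and the groups on the x axis. Horizontal lines are group means and bars 1 SD, near-identical libraries counting as 1 sample. Ibsp and Postn stand higher in the 3 OVX libraries than in the 3 sham libraries, and Bglap and Bglap2 are highest in the MSC+RAW-TW libraries.

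Ovariectomy was compared with sham surgery to see how the macrophages of an osteoporotic marrow differ. Ibsp and Postn, which encode matrix proteins, were higher in OVX than in sham BMMs, by 5.95-fold and 3.68-fold. Calls required a difference of 2-fold or more and a p-value from edgeR's quasi-likelihood test that, adjusted over all genes by the Benjamini-Hochberg method, did not exceed 0.05. Of the 10 members, 8 had enough counts for the test, and 2 of them were called higher and 0 lower, while 8.46% of all 16768 tested genes were called, 5.39% higher and 3.08% lower. The median log2 fold change was 0.64 over the 8 tested members and -0.01 over all tested genes. All 8 had a higher fitted value in OVX, as did 49.5% of all tested genes. At an unadjusted p under 0.05, 4 members were higher and 0 lower (15.7% and 14.2% of all tested genes), and DESeq2 called 3 higher and 0 lower (6.63% and 3.42% of all tested genes).

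Ibsp was at 10.5, 7.45 and 6.85 CPM in OVX replicates 1, 2 and 3 and at 1.7, 0.612 and 1.32 CPM in sham replicates 1, 2 and 3. All 3 OVX libraries lay above all 3 sham libraries. The group means were 8.25 ± 1.93 CPM (SD, n = 3) and 1.33 ± 0.516 CPM (n = 2), a log2 fold change of 2.57 (SE 0.34, adjusted p = 0.00661). Its counts behind these values were 228 to 339 in OVX and 10 to 64 in sham libraries.

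Postn was at 923, 660 and 599 CPM in the OVX replicates and at 241, 144 and 148 CPM in the sham replicates. The groups again did not overlap, and the lowest OVX library was well above the highest sham library. The means were 727 ± 172 CPM (n = 3) and 194 ± 67.3 CPM (n = 2), a log2 fold change of 1.88 (SE 0.29, adjusted p = 0.00868). Base composition moved with these groups: the libraries' deviations from the mean of each gene correlated with its GC content (Spearman's rho across 10310 genes, which are not independent) between -0.703 and -0.388 in OVX libraries and between 0.232 and 0.638 in sham libraries. With trends against GC content and length removed, Postn changed by 0.77 (adjusted p = 0.0528), which ended its call, while Ibsp kept a log2 fold change of 2.32 (adjusted p = 0.00452). Of the calls over all genes, 63.6% were higher as tested and 38.5% under that correction. Without OVX replicate 2, calls over all genes went from 903 higher and 516 lower to 184 and 125, and both Ibsp (adjusted p = 0.0462) and Postn (adjusted p = 0.0492) were still called.

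Spp1, the most abundant member per exon length, was at 4890, 3660 and 2750 CPM in the OVX replicates and 2420, 1130 and 1150 CPM in the sham replicates. Its libraries did not overlap, but its log2 fold change of 1.05 (SE 0.34) had an adjusted p of 0.0799 and was not called. It was called in 7 of 16 alternatives, among them when every library was entered as its own sample (1.24, adjusted p = 0.022) and in DESeq2 (1.05, adjusted p = 0.0187). Its value was 1.65 without sham replicate 1, which leaves 1 sham sample assumed to vary like the OVX samples, and 0.64 (adjusted p = 0.151) with the GC and length trends removed. Sparc stood at 3940 to 4370 CPM in OVX and 3140 to 3970 CPM in sham libraries, with a log2 fold change of 0.16 (95% interval -0.23 to 0.56).

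The transcription factors did not pass the test. Runx2 was at 19.1, 19.3 and 20.6 CPM in OVX and 15.2, 12.4 and 10.3 CPM in sham replicates, without overlap, with a log2 fold change of 0.54 (SE 0.2, adjusted p = 0.118). Sp7 was at 1.42, 2.04 and 2.55 CPM against 1.17, 1.22 and 1.13 CPM, also without overlap, with a log2 fold change of 0.74 (SE 0.38, adjusted p = 0.227). In all, 5 of the 8 tested members had libraries that did not overlap, as did 42.6% of all tested genes.

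Alpl (8.44 to 15.3 CPM) and Bmp2 (0.841 to 1.78 CPM) overlapped between the groups, with log2 fold changes of 0.3 (95% interval -0.19 to 0.8) and 0.32 (-0.72 to 1.37). The osteocalcin genes were near or below detection in BMMs. Bglap had 0, 6 and 2 counts in OVX and 0, 3 and 2 in sham replicates, and Bglap2 had 0, 0 and 6 against 13, 5 and 4. A count of 0 in OVX replicate 1 allows up to 0.0999 CPM of its total, taking 3 counts as the limit and counting error only. Neither gene had enough counts for the test, and no fold is given.

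Library identifiers in the column names of the BMM libraries form 2 series, one holding OVX replicate 2 and sham replicate 2 and the other the remaining 4 libraries. Within the first, the log2 ratio of OVX to sham was 3.61 for Ibsp, 2.19 for Postn and 1.69 for Spp1. Within the second it was 2.52, 1.97 and 1.1 for these genes. The series are not separate comparisons, since sham replicates 2 and 3, counted as 1 sample, lie one in each.

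Other cell types in the BMM cultures were compared beside these results, and their part in them was not tested. The 20 macrophage markers summed to 49100 to 53700 CPM in OVX and 63900 to 72300 CPM in sham libraries. Of these, 1 was called higher and 4 lower, while 5.39% of all tested genes were called higher and 3.08% lower. Most of that sum was Lyz2, named after its value was seen, at 38200 ± 2370 CPM in OVX and 49700 ± 3940 CPM in sham. A higher fitted value in OVX was found for 5 of the 20, with a median log2 fold change of -0.65. The 8 osteoclast markers summed to 342 to 352 CPM against 665 to 767 CPM, with 4 of 7 tested called lower. The 12 stromal markers, of which Col1a1, Col1a2 and Twist1 are also in the lineage lists below, summed to 7720 to 8410 CPM in OVX and 7010 to 7930 CPM in sham libraries. Of these 12, edgeR and DESeq2 each called 0 in either direction, and 2 were higher and 1 lower at an unadjusted p under 0.05.

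Smooth muscle and pericyte markers summed to 2470 to 3060 CPM in OVX and 1650 to 2000 CPM in sham libraries, with 1 of 7, Cspg4, called lower. Most of the sum was Acta2, named after its value was seen, at 2640 ± 275 CPM in OVX and 1690 ± 321 CPM in sham (log2 fold change 0.61, adjusted p = 0.0729). The study's 6 MSC surface markers hold 4 that mark MSCs (Itgb1, Ly6a, Nt5e and Cd44) and 2 whose protein MSCs lack (Cd34 and Ptprc), so they were not summed. Of the 6, named after their values were seen, Nt5e was called higher (2.84 ± 0.783 CPM in sham, 7.97 ± 1.79 CPM in OVX) and Ly6a lower (355 ± 25.2 and 169 ± 12.1 CPM). Chondrocyte markers (17.6 to 18.6 against 13 to 14.2 CPM) and endothelial markers (17.1 to 20 against 16.1 to 19.6 CPM) were low in both groups. The osteocyte markers summed to at most 0.856 CPM and the adipocyte markers to at most 0.61 CPM in any BMM library, with Mepe, Sost, Cidec and Lep at 0 counts in all of them.

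**Figure D2:**
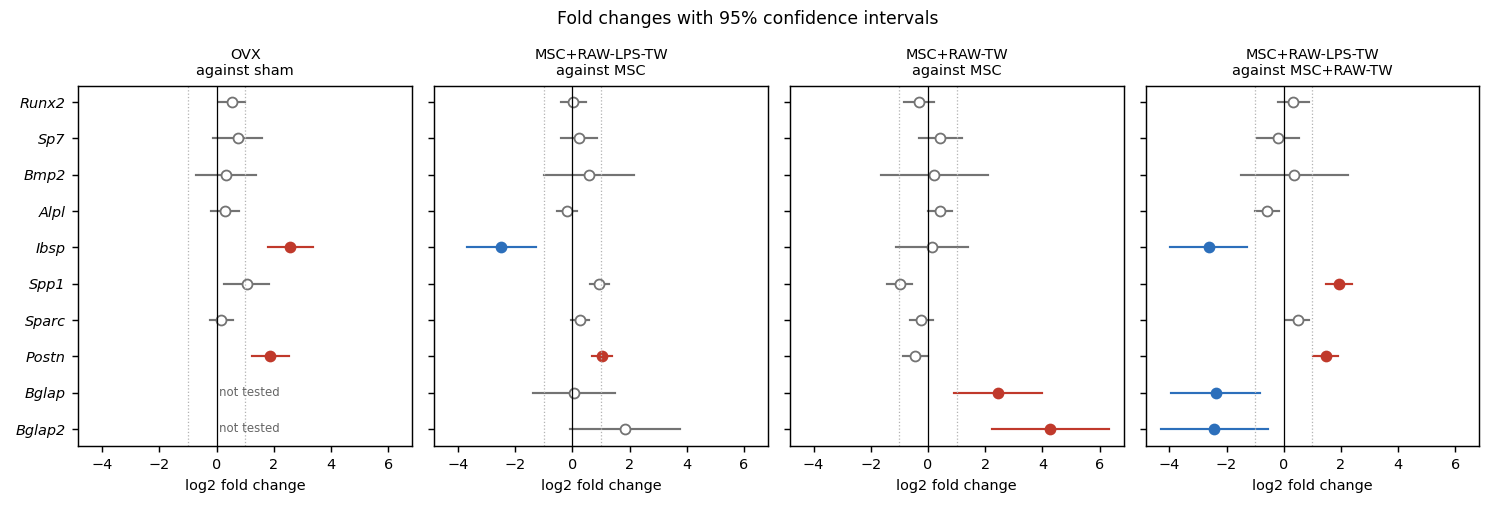
Log2 fold change (x axis) of each member in the 4 comparisons, 1 panel each, from edgeR's fit, with bars for the 95% confidence interval. Filled red points were called higher and filled blue points lower, open points were not called, and dotted lines mark 2-fold. Ibsp is called in 3 panels, higher in OVX and lower in MSC+RAW-LPS-TW, and Bglap and Bglap2 are called in the 2 panels with MSC+RAW-TW.

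The transwell experiment asked how mitochondria passed on by untreated or LPS-treated macrophages bear on gene expression in MSCs. No sequenced group received mitochondria alone, so their part cannot be told apart from that of anything else that passes the membrane. The 3 comparisons share libraries and are not independent. MSC+RAW-LPS-TW cells had 5.58-fold less Ibsp and 2.04-fold more Postn than MSCs alone. All 10 members were tested, with 1 called higher and 1 lower, while 10.9% of all 20499 tested genes were called, 5.85% higher and 5.09% lower. The median log2 fold change was 0.24 over the members and -0.01 over all tested genes, and 8 of the 10 members had a higher fitted value, against 49.0% of all tested genes.

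Ibsp was at 2.41 and 1.24 CPM in MSC replicates 1 and 2 and at 0.331 and 0.317 CPM in the MRL-2 and MRL-3 libraries. Both MSC+RAW-LPS-TW libraries lay below both MSC libraries, on 11 and 10 counts against 117 and 42. The log2 fold change was -2.48 (SE 0.57, adjusted p = 0.00475). It rested in part on MSC replicate 1, without which it was -1.92 with an adjusted p of 0.127.

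Postn was at 39 and 37.9 CPM in MSCs and at 87.1 and 68.5 CPM in the MRL-2 and MRL-3 libraries. The log2 fold change was 1.03 (SE 0.16, adjusted p = 0.000226), just past 2-fold, and it fell short of 2-fold without the MRL-2 library (0.82), with library totals alone (0.8) and with the GC and length trends removed (0.93). Spp1 was at 1290 and 1440 CPM in MSCs and at 2870 and 2370 CPM in MSC+RAW-LPS-TW. It passed the p limit but not the fold limit, at 0.95 (SE 0.16, adjusted p = 0.000398), and was past 2-fold without MSC replicate 2 (1.04) or without MRL-3 (1.08).

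The regulators did not pass the test in this comparison. Runx2 was at 12 and 14.1 CPM in MSCs and at 14.1 and 12.4 CPM in MSC+RAW-LPS-TW, with a log2 fold change of 0.03 (95% interval -0.4 to 0.47). Sp7 (3.92 and 5.23 against 4.27 and 6.31 CPM) had 0.22 (-0.41 to 0.85), and Bmp2, at 18 to 31 counts per library, 0.59 (-0.98 to 2.16). The intervals of Runx2 and Sp7 lie inside 2-fold in either direction, and that of Bmp2 does not.

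Alpl was at 23.5 and 25.7 CPM in MSCs and 21.7 and 21.2 CPM in MSC+RAW-LPS-TW, a log2 fold change of -0.19 (-0.54 to 0.17). Sparc was at 1170 and 1120 CPM against 1340 and 1370 CPM, with 0.26 (-0.06 to 0.57). Bglap, at 33 and 10 counts in MSCs and 9 and 24 in MSC+RAW-LPS-TW, had 0.06 (-1.37 to 1.5), and Bglap2, at 2 and 6 against 8 and 16 counts, had 1.84 (-0.09 to 3.78, adjusted p = 0.183). Libraries of 7 of the 10 members did not overlap between these groups, as was the case for 57.6% of all tested genes.

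MSCs cultured with untreated RAW264.7 cells differed from MSCs alone in the osteocalcin genes. Bglap was 5.42-fold and Bglap2 19.3-fold higher in MSC+RAW-TW, and these were the 2 members called higher, with 0 lower, while 16.4% of all tested genes were called (6.80% higher, 9.59% lower). The median was 0.18 over the 10 members and -0.13 over all tested genes, and 6 of the 10 had a higher fitted value, against 44.5% of all tested genes. At an unadjusted p under 0.05 and no fold limit, 2 were higher and 2 lower (18.4% and 22.3% of all tested genes), and DESeq2 called 1 higher and 0 lower (6.06% and 10.2% of all tested genes).

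Bglap had 33 and 10 counts in MSC replicates 1 and 2 (0.681 and 0.294 CPM) and 110 and 89 counts in the MSC+RAW-TW columns (2.68 and 2.55 CPM). All of the MSC+RAW-TW values lay above those of MSCs, and the log2 fold change was 2.44 (SE 0.72, adjusted p = 0.0203). Over 15 alternatives, the log2 fold change ranged from 1.77 to 3.18. Summed over the pair, the MSC+RAW-TW sample had 199 counts of Bglap, or 2.38 CPM of its total before TMM scaling. The exact Clopper-Pearson 95% interval was 2.06 to 2.74 (counting error only). The call ended without MSC replicate 2 (1.99, adjusted p = 0.116), in DESeq2 (2.46, adjusted p = 0.0584) and with the GC and length trends removed (1.77, adjusted p = 0.0945).

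Bglap2 had 2 and 6 counts in MSCs (0.0413 and 0.176 CPM) and 68 and 82 in the MSC+RAW-TW columns (1.66 and 2.34 CPM). The log2 fold change of 4.27 (SE 0.96, adjusted p = 0.00417) rests on very few counts in MSCs and spans 2.23 to 6.31 in its 95% interval. Over 14 alternatives, the log2 fold change of Bglap2 ranged from 3.5 to 5.54. The MSC+RAW-TW sample's 150 counts were 1.8 CPM of its total before TMM scaling (exact 95% interval 1.52 to 2.11). With the counts of Bglap, Bglap2 and Bglap3 added to each other, the family was still called (2.98, adjusted p = 0.00145). A filter on a mean of at least 1 CPM removed both genes from the test.

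Spp1 went the other way in MSC+RAW-TW, at 678 and 658 CPM against 1290 and 1440 CPM in MSCs. Its log2 fold change of -0.99 (SE 0.2, adjusted p = 0.00252) passed the p limit and fell just short of 2-fold, and it was past both limits in 7 of 16 alternatives. It was -1.34 with library totals and -0.64 with the GC and length trends removed. Postn was at 27.7 and 27.3 CPM against 39 and 37.9 CPM, with -0.44 (SE 0.2, adjusted p = 0.114), a direction that reversed to 0.55 (adjusted p = 0.0407) with the GC and length trends removed.

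Alpl was at 32.1 and 31.2 CPM in MSC+RAW-TW, above both MSC libraries, with a log2 fold change of 0.41 (SE 0.2, adjusted p = 0.133). Runx2, at 10.5 and 9.89 CPM, was below both MSC libraries, with -0.31 (-0.84 to 0.22), and Sp7, at 6.11 and 5.78 CPM, was above them, with 0.43 (-0.31 to 1.17). Sparc, at 954 and 936 CPM, had -0.23 (-0.62 to 0.16). Ibsp and Bmp2 overlapped, with 0.14 (-1.13 to 1.41) and 0.22 (-1.64 to 2.08). In 8 of the 10 members the libraries did not overlap, as in 78.4% of all tested genes.

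The cocultures were then compared with each other. MSC+RAW-LPS-TW had 3.83-fold more Spp1 and 2.76-fold more Postn than MSC+RAW-TW, and less Ibsp (6.15-fold), Bglap2 (5.38-fold) and Bglap (5.19-fold). Of the 10 members, 5 were called, 2 higher and 3 lower, while 27.4% of all tested genes were called, 15.4% higher and 12.0% lower. The median was 0.07 over the members and 0.14 over all tested genes, and 5 of the 10 had a higher fitted value, against 53.9% of all tested genes.

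For Spp1 the values were 2870 and 2370 CPM against 678 and 658 CPM, a log2 fold change of 1.94 (SE 0.21, adjusted p = 5.86e-06). Postn stood at 87.1 and 68.5 CPM against 27.7 and 27.3 CPM, with 1.47 (SE 0.21, adjusted p = 6.45e-05), which was 0.38 (adjusted p = 0.116) with the GC and length trends removed. Spp1 was still called under that correction, at 1.45 (adjusted p = 3.08e-05). Ibsp was at 11 and 10 counts in MSC+RAW-LPS-TW and 86 and 63 in MSC+RAW-TW, with -2.62 (SE 0.63, adjusted p = 0.00363) and -2.92 (adjusted p = 0.00265) under that correction.

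Bglap (9 and 24 counts against 110 and 89) had a log2 fold change of -2.38 (SE 0.73, adjusted p = 0.0171), and Bglap2 (8 and 16 against 68 and 82) had -2.43 (SE 0.88, adjusted p = 0.0377). The adjusted p of Bglap rose to 0.0516 in DESeq2 and 0.0638 with the GC and length trends removed, and that of Bglap2 to 0.104 and 0.12. The fold changes themselves stayed past 2-fold, between -3.29 and -1.8 for Bglap over 15 alternatives and between -3.05 and -1.8 for Bglap2 over 14. Bglap2 also lost its call with library totals (adjusted p = 0.052), without the MRL-2 library (adjusted p = 0.0767) and without the second MR-1 column (adjusted p = 0.0982), which makes 5 of the 14. Alpl (-0.6, SE 0.2, adjusted p = 0.0257) and Sparc (0.49, SE 0.18, adjusted p = 0.0469) passed the p limit below 2-fold, Alpl moving to -0.12 (adjusted p = 0.642) with the GC and length trends removed.

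Runx2 had 0.34 (-0.19 to 0.87), Sp7 -0.21 (-0.95 to 0.54) and Bmp2 0.37 (-1.51 to 2.26) between the cocultures, and none passed the test. Libraries of 8 of the 10 members did not overlap between the cocultures, as in 78.1% of all tested genes. The GC trend differed between these groups as well: rho was -0.418 and -0.283 in MSC, 0.509 and 0.502 in MSC+RAW-TW and -0.351 and -0.238 in MSC+RAW-LPS-TW libraries, across 10428 genes.

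The MSC libraries also fall into a pair of identifier series by the suffix in their column names, with 1 library of each group in each. Both MSC+RAW-TW libraries count as 1 sample, so ratios that involve this group use that sample in both series. For MSC+RAW-LPS-TW against MSC, the log2 ratio within each series was -2.87 and -1.96 for Ibsp, 1.16 and 0.85 for Postn and 1.16 and 0.72 for Spp1. For MSC+RAW-TW against MSC it was 1.98 and 3.11 for Bglap, 5.33 and 3.73 for Bglap2 and -0.93 and -1.13 for Spp1. Between the cocultures it was -2.66 and -2.51 for Ibsp, 2.08 and 1.85 for Spp1 and 1.66 and 1.33 for Postn.

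**Figure D3:**
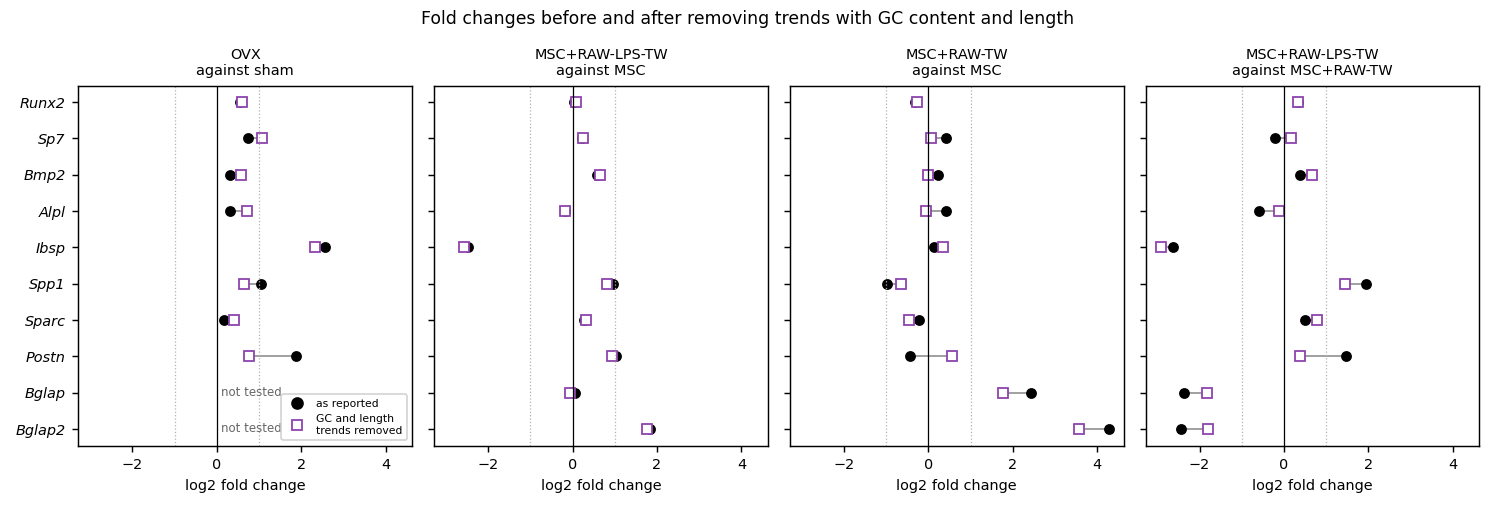
Log2 fold change (x axis) of each member in the 4 comparisons as reported (black points) and after removing each library's trend with GC content and exon length (open squares). Postn moves from 1.88 to 0.77 in OVX against sham and from -0.44 to 0.55 in MSC+RAW-TW against MSC, whereas Ibsp in OVX moves from 2.57 to 2.32.

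Marker levels moved with the MSC groups, and their part in these results was not tested. The 20 macrophage markers summed to 32900 CPM in each MSC library, 42400 to 43000 CPM in MSC+RAW-TW and 17500 to 18400 CPM in MSC+RAW-LPS-TW. Most of each sum was Lyz2, named after its value was seen. Lyz2 was at 21800 ± 58.4 CPM in MSC, 26300 CPM in MSC+RAW-TW and 9560 ± 557 CPM in MSC+RAW-LPS-TW. In MSC+RAW-LPS-TW against MSC, 6 of the 20 had a higher fitted value (49.0% of all tested genes), and their median log2 fold change was -0.52. Against MSC, 4 of the 20 were called higher and 1 lower in MSC+RAW-TW, and 1 higher and 7 lower in MSC+RAW-LPS-TW. The 12 stromal markers summed to 2690 to 2820, 2030 to 2040 and 3990 to 4070 CPM in these groups, with 1 higher and 3 lower in MSC+RAW-TW and 2 higher and 0 lower in MSC+RAW-LPS-TW (6 and 1 at an unadjusted p under 0.05, and 2 and 0 in DESeq2). Between the cocultures, 4 macrophage markers were called higher and 8 lower in MSC+RAW-LPS-TW, and 6 stromal markers higher and 1 lower. Of all tested genes, 6.80% were called higher and 9.59% lower in MSC+RAW-TW against MSC. The shares were 5.85% and 5.09% in MSC+RAW-LPS-TW against MSC, and 15.4% and 12.0% between the cocultures. They stand beside the marker calls of the next paragraph as well.

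The 8 osteoclast markers summed to 108 to 112 CPM in MSC, 144 to 145 CPM in MSC+RAW-TW and 828 to 886 CPM in MSC+RAW-LPS-TW, with Calcr at 0 counts in the first 2 groups. In MSC+RAW-LPS-TW against MSC, 2 of 6 tested osteoclast markers were called higher and 1 lower, with a median of 0.09. Most of the higher sum was Mmp9, named after its value was seen, at 38.1 ± 4.32 CPM in MSC and 718 ± 24.1 CPM in MSC+RAW-LPS-TW, while Atp6v0d2 fell from 17.4 ± 0.0138 to 3.02 ± 0.0602 CPM. Adipocyte markers summed to 27.6 to 28.7, 37.2 to 37.3 and 13.7 to 18.5 CPM, and pericyte and smooth muscle markers to 736 to 841, 854 to 880 and 558 to 634 CPM. Chondrocyte markers (16 to 17.7, 15.5 to 16.5 and 10.2 to 13 CPM) and endothelial markers (36.6 to 44.8, 33.8 to 35.8 and 41.2 to 47.3 CPM) were within 2-fold across the groups. Of the 6 MSC surface markers, 1 was called higher against MSC in each coculture, Ly6a in MSC+RAW-TW (216 ± 19.3 CPM in MSC, 511 CPM) and Nt5e in MSC+RAW-LPS-TW (7.43 ± 0.523 and 53.9 ± 1.3 CPM), and 0 were called lower. Between the cocultures 3 were called higher in MSC+RAW-LPS-TW and 1 lower. Osteocyte markers summed to at most 0.722 CPM, with Fgf23, Mepe and Sost at 0 counts in all 6 libraries.

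Beyond the members, 92 genes of the osteoblast lineage were counted in 5 lists. In OVX BMMs, 74 of them were tested, 7 were called higher and 1 lower (5.39% and 3.08% of all genes tested), and their median was 0.28 against -0.01 over all genes. Among the called genes with a mean of 1 CPM or more, the 3 largest rises were those of Omd, a keratan sulfate proteoglycan of bone matrix (log2 fold change 2.89, SE 0.59, adjusted p = 0.0196), Tnfrsf11b, which encodes the RANKL decoy receptor osteoprotegerin (2.01, SE 0.27, adjusted p = 0.00668), and the activin and BMP receptor Acvr2a (1.66, SE 0.35, adjusted p = 0.0214). Ifitm5, an osteoblast membrane protein, was the 1 called lower (-1.69, SE 0.39, adjusted p = 0.0284).

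By list, 1 of 12 tested transcription factors, 1 of 17 matrix and mineralization genes, 3 of 20 BMP pathway genes, 1 of 15 WNT pathway genes and 1 of 10 hormone, hedgehog and FGF genes were called higher in OVX. The remaining 4 that rose, named after their values were seen, were Mef2c (1.37), Bmp4 (1.63), Bmpr1a (1.41) and Wisp1 (1.25). With the GC and length trends removed, Tnfrsf11b (1.5, adjusted p = 0.00437), Bmp4 (1.88, adjusted p = 0.00656) and Wisp1 kept their calls, the other 5 genes lost theirs, Omd at an adjusted p of 0.054, and 2 further genes were called. The count of 8 fell to 1 without OVX replicate 2 and to 4 without OVX replicate 1. Col1a1, the main bone collagen chain, stood at 2000 ± 78.1 CPM (n = 3) in OVX and 1980 ± 144 CPM (n = 2) in sham.

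In MSC+RAW-LPS-TW against MSC, 12 of 80 tested lineage genes were called higher and 12 lower, against 5.85% and 5.09% of all genes tested. Tnfsf11, the osteoclast factor RANKL, rose from 1.03 ± 0.837 CPM to 16.2 ± 2.05 CPM (n = 2 each), a log2 fold change of 4.05 (SE 0.42, adjusted p = 3.11e-06). The BMP antagonist Grem1 rose from 72 ± 13.4 to 331 ± 23.6 CPM (2.21, SE 0.17) and the WNT receptor Fzd1 from 8.34 ± 2.51 to 32.2 ± 2.81 CPM (1.97, SE 0.22). The growth factor Igf1 fell from 256 ± 9.58 to 16.1 ± 5.04 CPM (-3.99, SE 0.21), the ligand Bmp4 from 6.52 ± 0.199 to 0.535 ± 0.263 CPM (-3.59, SE 0.38) and the mineralization inhibitor Mgp from 31.7 ± 2.61 to 4.53 ± 1.09 CPM (-2.8, SE 0.21).

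These changes were spread over the lists. Among the transcription factors 2 of 14 were called higher and 2 lower, among matrix genes 1 and 3 of 17, in the BMP pathway 3 and 2 of 21, in the WNT pathway 3 and 3 of 16 and among the hormone, hedgehog and FGF genes 3 and 2 of 12. The WNT genes called lower, named after their values were seen, were the secreted WNT antagonists Sfrp1 (-1.1), Sfrp2 (-2.2) and Sfrp4 (-1.94). The median over the 80 genes was 0.25, against -0.01 over all genes.

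In MSC+RAW-TW against MSC, 3 of the 80 were called higher and 10 lower (6.80% and 9.59% of all genes tested), with a median of -0.43 against -0.13 over all genes. Pth1r, the receptor of parathyroid hormone, rose from 3.33 ± 0.39 CPM (n = 2) to 9.04 CPM (1.5, SE 0.36, adjusted p = 0.00689), and Atf4, a transcription factor of amino acid supply and osteoblast maturation, from 253 ± 35.5 to 578 CPM (1.23, SE 0.19, adjusted p = 0.000428). The remaining gene called higher, named after its value was seen, was Phospho1, a phosphatase of mineralization (4.3, SE 1.43, adjusted p = 0.0351), whose mean level was under 1 CPM. Fgf2 fell from 2.32 ± 0.883 to 0.32 CPM (-2.87, SE 0.51), the BMP decoy receptor Bambi from 2.1 ± 0.268 to 0.317 CPM (-2.62, SE 0.67) and the homeobox gene Msx1 from 1.65 ± 0.344 to 0.414 CPM (-1.97, SE 0.71, adjusted p = 0.0486).

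By list, 6 of 21 tested BMP pathway genes were called lower and 0 higher, 0 of 16 WNT pathway genes were called in either direction, and 1 of 14 transcription factors, 1 of 17 matrix genes and 1 of 12 hormone, hedgehog and FGF genes were called higher, against 2, 0 and 2 lower. With no fold limit, 3 of the WNT genes passed the adjusted p limit. At an unadjusted p under 0.05, 0 WNT genes were higher and 4 lower, and DESeq2 called 0 of them. For the BMP pathway, 3 were higher and 11 lower at that p, and DESeq2 called 0 higher and 6 lower. With the GC and length trends removed, 5 of the 13 called genes kept their calls and 4 others were called. Those that lost theirs included Pth1r, Atf4 and Phospho1 and 4 of the 6 BMP pathway genes (Bmpr1a, Bmpr1b, Acvr2a and Grem1, named after their values were seen).

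Between the cocultures, 23 of the 80 were called higher in MSC+RAW-LPS-TW and 10 lower (15.4% and 12.0% of all genes tested), with a median of 0.25 against 0.14 over all genes. Fgf2 (4.8, SE 0.54), Tnfsf11 (3.47, SE 0.52) and Grem1 (3.44, SE 0.24) rose most among the called lineage genes whose mean was 1 CPM or more, and Igf1 (-4.56, SE 0.23), Bmp4 (-3.31, SE 0.42) and Mgp (-2.8, SE 0.23) fell most. In the BMP pathway, 10 of 21 were called higher and 2 lower. The counts were 4 and 2 of 14 for transcription factors, 1 and 3 of 17 for matrix genes, 4 and 2 of 16 for the WNT pathway and 4 and 1 of 12 for the hormone, hedgehog and FGF genes. Of the 33 calls, 27 were kept with the GC and length trends removed.

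**Figure D4:**
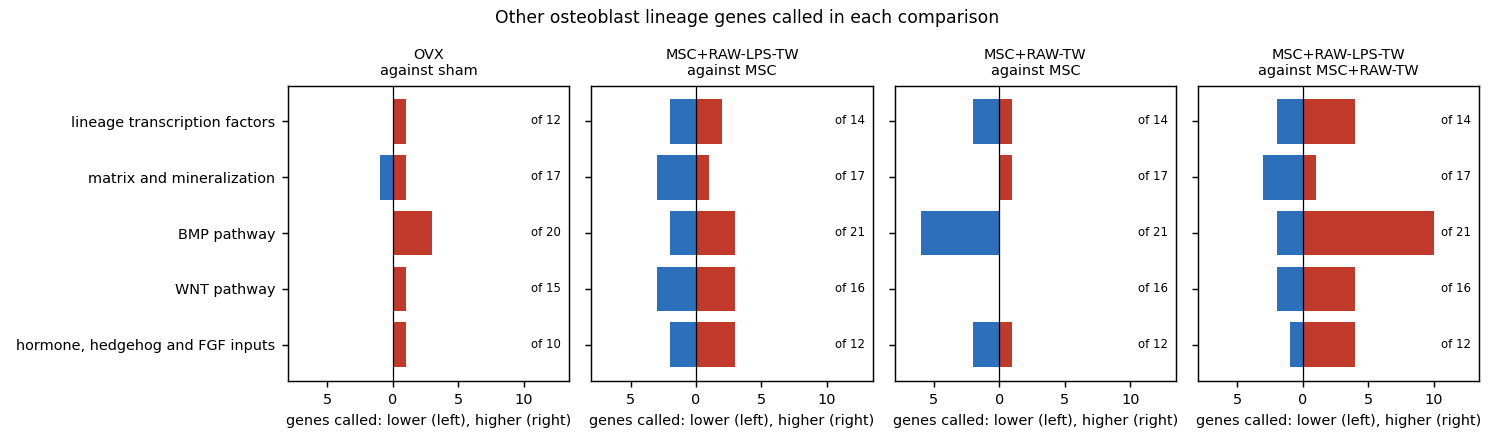
Number of genes of 5 osteoblast lineage lists called lower (blue, to the left of 0) and higher (red, to the right of 0) in the 4 comparisons, with the number tested at the right. In the BMP pathway, 6 of 21 were called lower in MSC+RAW-TW against MSC, where 9.59% of all genes tested were, and 10 of 21 higher when the cocultures were compared, where 15.4% of all genes tested were.

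The genes whose pattern over the 10 samples was most like that of a member were sought among 10569 other genes for the members with a mean of at least 1 CPM, which leaves out Bglap, Bglap2 and Bmp2, by the root mean square difference of log2 CPM after centring each gene, with CPM scaled within each experiment. For Sparc these were Col1a2 (0.11) and Col1a1 (0.19), both chains of type I collagen, beside its own root mean square variation of 0.88. These samples pool both experiments, and all 3 genes were higher in every BMM group (Sparc at 3580 and 4110 CPM) than in every MSC group (Sparc at 945 to 1360 CPM), a gap between cell types and experiments that the likeness includes. For Spp1 they were Sgk1 (0.17) and Bzw1 (0.21), with a variation of 0.83, and for Ibsp Fhl1 (0.29) and Ccdc80 (0.44), with 1.26.

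For Postn the nearest were Edil3 (0.43) and Acp1 (0.43), with a variation of 1.77. For Runx2 they were Rpp38 (0.1) and Cbx1 (0.13), with a variation of only 0.32. For Sp7 they were Fam160a1 (0.17) and Rrp15 (0.18), with 0.76, and for Alpl Mfn1 (0.11), with 0.54. Mean levels of Sp7 and Alpl were lower, and those of Postn higher, in every BMM group than in every MSC group. Their likenesses include that gap as well. The points share libraries and base composition trends, so these likenesses are descriptions of these samples.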

How the data were processed

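Poly(A) RNA of 12 mouse libraries in 5 groups and 2 experiments was made into libraries with a directional kit. As given in the methods and the submitters' processing notes, the authors trimmed reads with Trim Galore 0.6.7, aligned them to GRCm38 with HISAT2 2.1.0 and counted genes with featureCounts 2.0.1. The authors deposited the counts without normalization, 1 column for each library, and whether mates of a pair were counted separately was not given. Even numbers made up 60.0 to 71.4% of the counts from 1 to 20 in each library, so intervals from counts may be too narrow.

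Near-identical libraries were summed and entered as 1 sample. Within each experiment, counts were filtered (filterByExpr), scaled by TMM and tested with edgeR 4.0.16's quasi-likelihood F-test in R 4.3.3, with Benjamini-Hochberg adjustment over all genes tested (16768 and 20499). Calls used a 2-fold limit and an adjusted p limit of 0.05. The study used DESeq2, which was run here (version 1.42.0) as an alternative. Since nothing in the sources used here says that libraries came from separate animals, p-values measure the spread between these samples, which may be technical. Pairs were taken as near-identical where the median squared difference between their libraries, over genes with at least 2000 counts, was under 10 times its sampling value.

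The members, the lineage lists (transcription factors, matrix and mineralization, BMP pathway, WNT pathway, and hormone, hedgehog and FGF inputs) and the marker lists were chosen with earlier results of these data known. Named lineage genes were the 3 largest rises and the 3 largest falls called in each comparison at a mean of at least 1 CPM. The 2 most alike genes were sought among those with a mean of at least 5 CPM, and 1 of them is not reported here. Gene lengths, positions and GC contents came from GENCODE M21 (GRCm38), in which 55227 of the 55487 genes were found. The GC and length trends were removed with local regression curves (span 0.3) as offsets.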

Additional observations from a re-analysis of the deposited data

How the results depend on the processing

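Of 595 alternatives over 38 member fold changes, 543 kept direction and call, 16 lost the call, 16 gained it and 20 reversed. With GC and length trends removed, member calls went from 2 to 1 in OVX against sham, 2 to 1 in MSC+RAW-LPS-TW against MSC, 2 to 1 in MSC+RAW-TW against MSC and 5 to 2 between the cocultures, and lineage calls in OVX from 8 to 5. With library totals alone, member calls in MSC+RAW-LPS-TW against MSC went to 1 and lineage calls in MSC+RAW-TW against MSC from 13 to 20. DESeq2 called 1 member in MSC+RAW-TW against MSC and 3 between the cocultures. A mean of at least 1 CPM, which leaves out the osteocalcin genes, left 0 and 3, and summing Bglap, Bglap2 and Bglap3, which makes 1 gene of them, left 1 in MSC+RAW-TW against MSC. With no fold limit, lineage calls were 13, 38 and 28 in the first 3 comparisons. Leaving out 1 library at a time gave 2 to 3, 1 to 3, 1 to 3 and 4 to 5 member calls and 1 to 11, 24 to 30, 10 to 15 and 29 to 33 lineage calls in the 4 comparisons, in the order of the report. The lowest values came without MSC replicate 1 or MRL-2 (1 member in the second comparison), MSC replicate 2 (1 member in the third) and OVX replicate 2 (1 lineage gene).

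The values that reversed were of members not called. In MSC+RAW-LPS-TW against MSC, Runx2 went to -0.2 with library totals and ranged from -0.09 (without MRL-2; -0.08 without MSC replicate 1) to 0.16 with 1 library left out, Sp7 to -0.02 with library totals and from -0.09 (without MRL-3) to 0.46, and Bglap to -0.18 with library totals, -0.05 with trends removed, -0.38 without MSC replicate 2 and from -0.86 (without MRL-3) to 0.8. In MSC+RAW-TW against MSC, with trends removed, Alpl went to -0.06, Bmp2 to -0.01 and Postn to 0.55. There, with library totals, Ibsp went to -0.22 and Bmp2 to -0.14, and Ibsp ranged from -0.25 (without MSC replicate 2; 0 without the first MR-1 column) to 0.7 and Bmp2 from -0.41 (without the first MR-1 column) to 0.55. Between the cocultures, Sp7 went to 0.17 with trends removed and ranged from -0.51 to 0.06 (without MRL-2), and Bmp2 from -0.01 (without MRL-2) to 1. The cause was not tested.

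With the replicate block and every library its own sample, OVX against sham gave 3 member calls (Spp1 added, 1.28) and 11 lineage calls, and 1391 higher and 726 lower calls over all genes, against 1178 and 640 for every library its own sample without the block, where Spp1 was already called, and 903 and 516 as reported. Same-numbered OVX and sham libraries had correlations of their deviations of 0.4, -0.03 and 0.35, and not every sample correlated best with its own number, so the numbers were not taken as pairs. A block for the series of library identifiers, chosen after seeing the data and fitted with every library its own sample, gave 3, 2, 3 and 5 member calls, the same counts as every library its own sample without a block. For the MSC experiment no fit with the replicate number was made, since no pair of its groups shares 2 replicate numbers in the column names. Library totals moved the median log2 fold change of all genes to 0.24, -0.24, -0.49 and 0.26 in the 4 comparisons and the share of calls that were higher from 63.6, 53.5, 41.5 and 56.3% to 86.5, 35.7, 13.1 and 64.1%. The osteocalcin genes Bglap and Bglap2 had 0 to 13 counts per BMM library, and Bmp2 had 13 to 67 counts per library over all groups. Whether deeper sequencing would change their results was not tested.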
